A study of Bombyx mori with 12 samples.

Results

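The part of the silkworm piRNA system described here is the pool of small RNA bound to Siwi in BmN4 cells after knockdown of Mael, set beside the same pool in control cells. Its members are the transposon entries of the small RNA table with a mean of at least 1 RPM, the read count scaled to the size of the library, over the 6 small RNA libraries, and 1004 of the 1716 entries listed met that rule. BmN4 is a cultured cell line derived from the ovary of Bombyx mori, the domestic silkworm. The series holds 6 Siwi small RNA libraries and 6 libraries of poly-A RNA, 2 per group. The control cells received siRNA to luciferase (siLuc), and the compared cells received siRNA to Mael. Another small RNA group received siRNA to Ago3, and the RNA libraries came from luciferase, Mael and Siwi knockdown. All groups shared the cell line, the nucleofection of 500 pmol of siRNA, its repetition, and harvest after 10 days at 26 °C. The cells of all 6 small RNA libraries also received a plasmid at day 2, and none is listed for the RNA libraries. Small RNA was recovered with an antibody to the Flag tag and cut from a gel at 22 to 35 nt, so the pool is what the tagged protein held. The tables list transposon entries only, so neither the loss of Mael, the amount of Siwi recovered nor any marker gene of the cell line could be read from them.

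PIWI-interacting RNAs (piRNAs) are small guide RNAs of animal germ cells that lead PIWI proteins to transposon transcripts. In the silkworm the PIWI proteins are Siwi and Ago3, and in the ping-pong cycle each cuts transposon RNA into pieces that load the other. Mael (Maelstrom) is a conserved germ cell protein with an HMG-box domain and a domain with a nuclease-like fold, found in nuage, the perinuclear granules where piRNAs are made. In Drosophila it acts together with the nuclear protein Piwi in silencing transposons. A library of Siwi-bound RNA therefore reports which transposons guide Siwi, and its values are shares of that pool and not amounts per cell.

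Library totals, recovered from the size of a single read in each column, were 4.81 and 1.76 M reads in control, 3.02 and 1.84 M reads after Mael knockdown, and 2.61 and 2.18 M reads after Ago3 knockdown. A floor of 3 reads stood for 0.624 to 1.70 RPM over the 6 libraries. No library repeated another, since the 2 libraries of each group differed by more than counting noise. Of the 1004 tested entries, 962 were above 0 in all 4 libraries compared, and 1 was at 0 in both Mael libraries. A further 461 entries were above 0 but under the mean of 1 RPM, and 251 were at 0 in all 6 libraries. The entries left out held 0.0133% of the control reads, so the tested ones carry nearly all reads listed.

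After Mael knockdown some abundant transposon piRNAs were higher, and in RPM a larger number of entries was lower. On the log2(RPM + 1) scale 118 of 1004 entries were higher, which is 11.8% of those tested, and 446 were lower, which is 44.4% (limma, Benjamini-Hochberg adjusted p under 0.05). Changes of at least 2-fold were called for 36 entries that rose (3.59%) and 215 that fell (21.4%). Both Mael libraries lay above both control libraries for 193 entries (19.2%) and below both for 581 (57.9%). The median entry changed by -0.44.

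How many entries count as higher depends on the reference. RPM relates each entry to the whole library, in which the reads listed under transposons themselves grew. With trimmed-mean scaling, which centres the libraries on their middle entries, the median moved up by 0.51 to 0.07, and 261 entries were higher (26.0%) and 194 lower (19.3%). With the transposon total as the reference the split was 81 higher and 505 lower. Entries called the same way under all 3 references numbered 81 higher (8.07%) and 194 lower (19.3%), and 22 entries called lower in RPM were called higher with the trimmed mean. Counts below are in RPM unless a reference is named, and the called direction of a single entry held under all 3 references unless another is given beside it. Across bulk samples fewer cells that load an RNA and less of it per cell cannot be told apart.

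**Figure D1:**
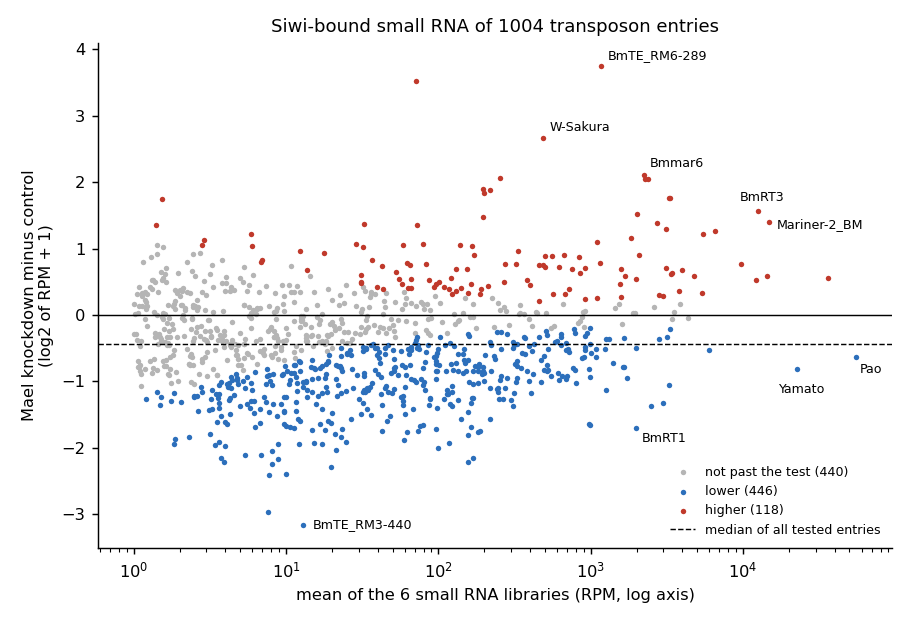
Log2 change of each of the 1004 tested entries after Mael knockdown (y axis, log2 of RPM + 1, mean of 2 libraries minus mean of 2 control libraries) against its mean over the 6 small RNA libraries (x axis, RPM, log scale). Red points are the 118 higher entries, blue the 446 lower ones and grey those that did not pass the test, and the dashed line is the median of -0.44. Where 0 would lie with trimmed-mean scaling varies with the level, and for abundant entries it is below the dashed line. Of the most abundant entries, at the right end, Mariner-2_BM and BmRT3 lie well above the dashed line, while the left part of the plot holds few red points.

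Transposons took a larger share of the Siwi-bound pool after Mael knockdown. The summed entries held 42.4% and 43.7% of the reads in the control libraries and 49.4% and 49.2% in the Mael libraries. Both Mael libraries were above both controls, and the difference of the means was 6.26 percentage points (43.1% ± 0.907 against 49.3% ± 0.194, SD, n = 2; exact permutation test, two-sided, p = 0.333, the smallest that 2 against 2 allows). Ago3 knockdown libraries stood lower than either, at 36.6% ± 0.680 (SD, n = 2). A read that matches several entries may be counted under each, so these sums are not exact shares of molecules. Without the 10 entries of highest mean RPM over the 6 libraries the difference was 1.89 points, from 26.1% to 28.0%. Most of the gain thus lay in a few entries. That mean includes the Mael libraries, so an entry can stand among the 10 through its rise.

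Few entries carried the gain. All rises in mean RPM, over 472 entries, summed to 14.6% of the library, and the 3 largest made up 32.2% of that sum, the 10 largest 60.9% and the 20 largest 80.3%. All falls, over 922 entries, summed to -8.32 percentage points, of which Pao and Yamato alone made up 33.4%. The 10 largest falls made up 49.8% and the 20 largest 58.5%. Entries were ranked by their own change, so the top ones hold much of each sum by construction. In the control libraries 22 and 20 entries held 50% of the transposon reads, and in both Mael libraries 14 did. The listed transposon reads were thus concentrated in fewer entries, some of which have nearly the same values as another. After Ago3 knockdown 9 and 8 entries held 50% of these reads.

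By class, DNA transposons moved from 5.75% ± 0.0397 of the library to 8.83% ± 0.0449, and LINEs (retrotransposons without long terminal repeats) from 9.35% ± 0.422 to 12.1% ± 0.245 (SD, n = 2 each). LTR retrotransposons, the largest class in control cells, went from 17.0% ± 0.364 to 15.4% ± 0.108. This direction rests on Pao and Yamato, without which LTR entries held 9.60% of control and 10.8% of Mael libraries. Unclassified entries held 10.3% and 12.2%. The DNA gain was largely mariner, since TcMar-Mariner entries went from 2.40% to 5.21%, and DNA without Mariner-2_BM went from 4.70% to 6.06%. The LINE gain was largely Jockey, from 5.13% to 7.73%.

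**Figure D2:**
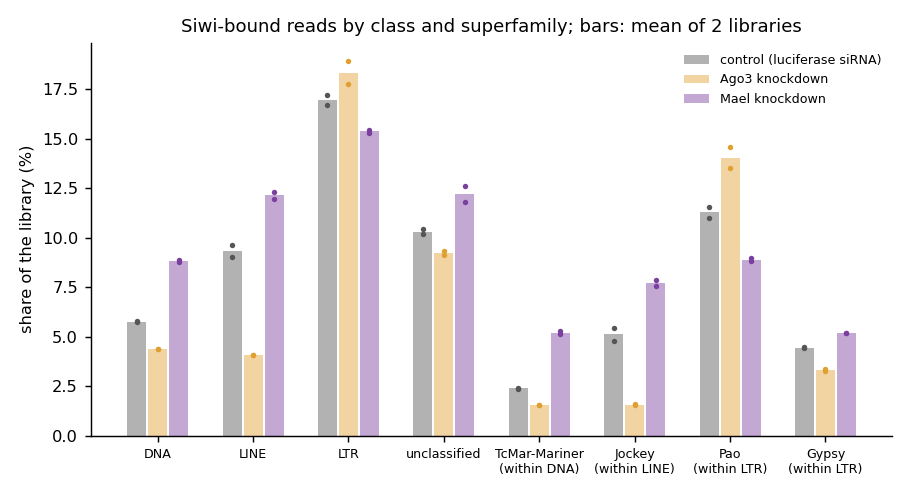
Share of the library's reads (y axis, percent) in the 4 large classes and in 4 superfamilies within them (x axis), for control, Ago3 knockdown and Mael knockdown libraries. Bars are means of 2 libraries, dots are the libraries, and the bars of the Pao superfamily and of LTR entries are lower with Mael than in control while the DNA, LINE and Jockey bars are higher.

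Entry counts in RPM ran against these sums for DNA, LINE and unclassified entries and with them for LTR entries. Of 71 DNA entries 13 were higher and 36 lower, of 172 LINE entries 22 and 83, of 116 LTR entries 19 and 75, of 20 SINE entries 3 and 7, and of 613 unclassified entries 59 and 242. The shares lower were 50.7%, 48.3%, 64.7%, 35.0% and 39.5% in this order, beside 44.4% of all tested entries. Those of DNA, LINE and unclassified entries thus lay near the share of all entries. Medians were -0.45 for DNA, -0.51 for LINE, -0.55 for LTR, -0.25 for SINE and -0.42 for unclassified entries, beside -0.44 over all 1004. With the transposon total all 5 classes again had more entries lower than higher. With the trimmed mean each class had more entries higher than lower, namely 25 and 18 for DNA, 45 and 40 for LINE, 44 and 34 for LTR, 7 and 2 for SINE and 134 and 100 for unclassified entries. Over all 1004 entries it was 261 and 194.

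The largest rise was that of BmTE_RM6-289, a Pao-type LTR entry. It was at 82.4 and 99.8 RPM in the control libraries and at 1271 and 1206 RPM in the Mael libraries (log2 change 3.76 ± 0.09, SE, adjusted p = 8.47e-31). The groups lay more than 10-fold apart, and the Ago3 libraries, at 2094 and 2301 RPM, were higher still. The unclassified entry BmTE_RM1-626 had the same order, with 3.75 and 8.51 RPM in control, 84.0 and 70.0 with Mael and 136 and 124 with Ago3 knockdown (log2 change 3.53 ± 0.21, SE, adjusted p = 7.91e-18 for Mael against control).

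W-Sakura, a marker sequence labelled as from the W chromosome, which is carried by female silkworms, followed these. It stood at 181 and 197 RPM in control and 1183 and 1224 RPM with Mael knockdown (log2 change 2.67 ± 0.10, SE, adjusted p = 2.68e-24). In the Ago3 libraries it was at 62.8 and 61.5 RPM, below control, so its order differed from that of BmTE_RM6-289. Of the other W markers tested, W-Bonsai went from 47.6 and 52.7 to 25.1 and 30.4 RPM (log2 change -0.84), called lower in RPM and not with the trimmed mean. W-Mikan went from 21.2 and 30.6 to 15.9 and 13.6 RPM, a call that was lost with the trimmed mean and without LucKD replicate 2. The W class as a whole, 11 entries of which 4 were tested, went from 0.0269% to 0.125% of the library, nearly all of it W-Sakura.

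Bmmar6, a mariner element, rose less far and from a higher level, from 1043 and 1065 to 4535 and 4590.1 RPM (log2 change 2.11 ± 0.07, SE, adjusted p = 6.5e-25). The 2 libraries of each group were close together, and those of Ago3 knockdown, at 1061 and 1071 RPM, overlapped the control range. BmTE_RM6-54 and BmTE_RM5-3344 had nearly the same values as Bmmar6 in every library, with ratios between 0.997 and 1.13, so these 3 of the 10 largest rises may report 1 sequence. BmTE_RM6-3153, a CR1-Zenon LINE, and BmTE_RM5-1510, unclassified, form another pair of similar values. The former went from 112 and 129.9 to 411 and 455 RPM (log2 change 1.84).

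**Figure D3:**
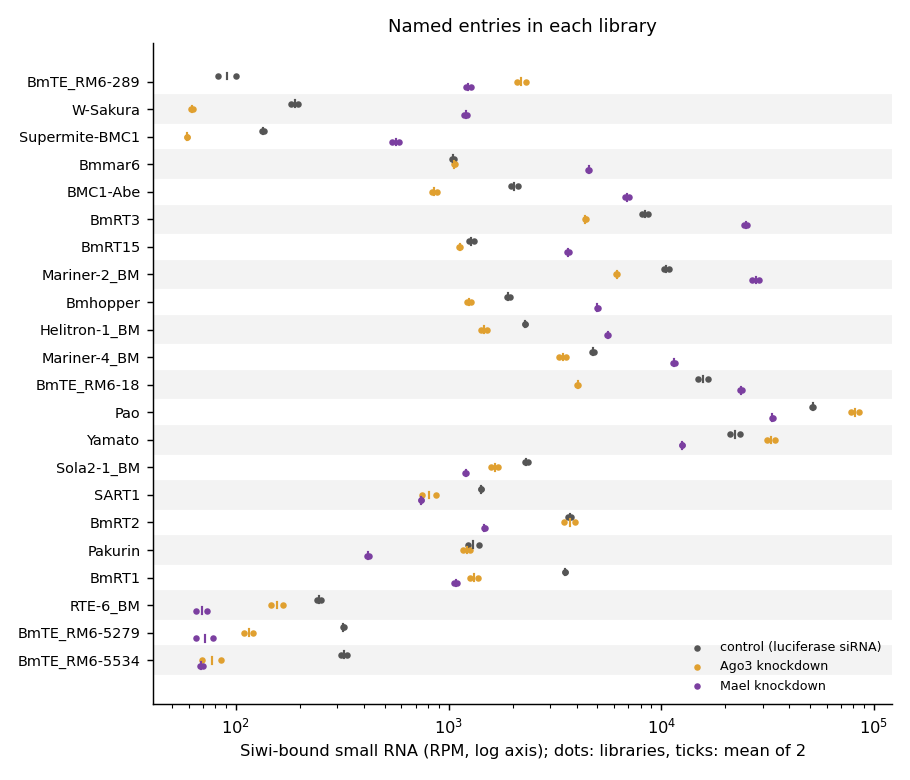
Siwi-bound small RNA of 22 entries described in the text (rows) in each of the 6 libraries (x axis, RPM, log scale), with dots for libraries and ticks for the mean of 2. From BmTE_RM6-289 down to BmTE_RM6-18 the Mael dots lie right of the control dots, and from Pao down they lie left; the Ago3 dots lie on the other side of control from Mael for many entries, such as W-Sakura, BmRT3 and Pao, but on the same side for others, such as BmTE_RM6-289 and BmRT1.

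Mariner elements, cut-and-paste DNA transposons with a short transposase gene, made up much of the DNA gain. Mariner-2_BM had the largest absolute rise of all entries, from 10291 and 10846 to 26829 and 28699.9 RPM (log2 change 1.39 ± 0.07, SE, adjusted p = 6.71e-20). Per length it went from 8269.7 to 21725 RPM per kb, above Pao, which went from 10743 to 6958 RPM per kb, so the order of these 2 was turned. Mariner-4_BM rose from 4719 and 4809.7 to 11570.0 and 11302 RPM and MAR1_BM from 1736 and 1733 to 3210.1 and 3254 RPM (log2 changes 1.26 and 0.90). The entry robertson-mariner rose less, from 399 and 298 to 495 and 498 RPM (log2 change 0.53). Not all mariners rose. Mariner-3_BM fell from 775 and 704 to 412 and 421 RPM (log2 change -0.82), and Mariner-12_BM went from 630.2 and 681 to 420.0 and 397 RPM, lower in RPM but not with the trimmed mean. Of 15 TcMar-Mariner entries tested, of 24 listed, 6 were higher and 7 lower, and 5 were higher and 2 lower under all 3 references. In RPM the shares were 40.0% higher and 46.7% lower, beside 11.8% and 44.4% of all tested entries.

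Other DNA transposons went both ways. Helitron-1_BM, a rolling-circle element, rose from 2283 and 2282 to 5584 and 5611 RPM (log2 change 1.29), while Helitron-N1_BM, at 164 and 189 and 106 and 97.1 RPM, was lower in RPM only. Bmhopper, placed in no DNA superfamily by its label, rose from 1948 and 1876 to 5017 and 4982 RPM (log2 change 1.39 ± 0.07, SE, adjusted p = 2.36e-19). The piggyBac entry BmpiggyBac-MER85, among the 10 most abundant in control cells, went from 6271 and 6594 to 4495 and 4408 RPM, a log2 change of -0.53 in RPM and 0.06 with the trimmed mean.

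Sola and Harbinger elements, both cut-and-paste DNA transposons, went down in RPM. Of 9 Sola entries 7 were lower (77.8%, beside 44.4% of all tested entries) and 0 higher. Under all 3 references 5 were lower, and 1 was higher with the trimmed mean. Their median log2 change was -0.95, or -0.45 with the trimmed mean. Sola2-1_BM fell from 2356 and 2279.5 to 1209 and 1198 RPM and Sola1-2_BM from 454 and 425 to 185 and 175 RPM (log2 changes -0.94 and -1.28). BmTE_RM6-8256 had the largest Sola fall, from 252 and 222 to 69.4 and 53.7 RPM (log2 change -1.93 ± 0.14, SE, adjusted p = 1.64e-15). Of 8 Harbinger entries 1 was higher and 6 lower, or 1 and 2 with the trimmed mean. The Harbinger entry BmTE_RM5-1047 fell from 3777 and 3916 to 1965 and 1727 RPM (log2 change -1.06). BmTE_RM6-5534, a TcMar-Fot1 entry, had the largest fall of any DNA entry above 100 RPM in control, from 314 and 335 to 67.8 and 70.0 RPM (log2 change -2.22).

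Among LINEs, the Jockey clade held the largest share and grew. Of 19 Jockey entries tested, of 24 listed, 7 were higher (36.8%, beside 11.8% of all tested entries) and 5 lower (26.3%, beside 44.4%), with a median of 0.12. With the trimmed mean 9 were higher and 1 lower, and with the transposon total 6 and 5 with a median of -0.07. The 3 most abundant LINE entries in control cells were Jockey entries. BmTE_RM6-18 was at 14866 and 16580.0 RPM in control and 23378 and 23947 RPM with Mael knockdown (log2 change 0.59), and BmTE_RM3-31, with similar values, was at 12455 and 13761 and 18347 and 19247 RPM. L1BM, a Jockey entry distinct from L1Bm below, rose from 3148 and 3964 to 5272 and 5610.4 RPM (log2 change 0.62). BmTE_RM1-25 went from 5781 and 6799 to 7712 and 8119 RPM (log2 change 0.34), a call that was lost with the transposon total. BMC1 LINEs rose further. BMC1-Abe went from 1971 and 2112 to 6767 and 7025 RPM (log2 change 1.76 ± 0.07, SE, adjusted p = 2.01e-22), with nearly the same values for the Jockey entry BmTE_RM5-1065, and Supermite-BMC1 from 132 and 136 to 540.0 and 587 RPM (log2 change 2.06). The third BMC1 entry, L1Bm, was at 3319.9 and 3132 and 3464 and 3559 RPM, which did not pass the test in RPM (log2 change 0.12 ± 0.07, SE, adjusted p = 0.157).

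I elements, LINEs of a clade best known from hybrid dysgenesis in Drosophila, fell. Of 13 tested, of 17 listed, 12 were lower and none higher, 10 of them under all 3 references, with a median of -1.34. The share lower was 92.3%, beside 44.4% of all entries. I-1_BM fell from 248 and 256 to 127 and 124 RPM (log2 change -0.99) and BmTE_RM1-540 from 30.4 and 42.0 to 8.60 and 4.88 RPM (log2 change -2.29). The most abundant of them, I-2_BM, was at 1212 and 1088 RPM in control and 1122 and 1119 RPM with Mael knockdown, so its groups overlapped (log2 change -0.04, or 0.55 with the trimmed mean, which was called higher). Of 21 RTE elements 11 were lower and 0 higher, 6 of them under all 3 references, while 4 were higher with the trimmed mean. The share lower, 52.4%, is near the 44.4% of all entries. RTE-6_BM fell from 240.3 and 252 to 73.4 and 65.1 RPM (log2 change -1.82 ± 0.12, SE, adjusted p = 1.3e-16).

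Other LINE clades were mixed. Of 17 CR1-L2 entries 2 were higher and 9 lower, or 4 and 5 with the trimmed mean. The share lower in RPM, 52.9%, is near the 44.4% of all tested entries. Benkei rose from 1676 and 1608 to 2454 and 2481 RPM and BmTE_RM6-5279 fell from 320.2 and 321 to 78.4 and 65.1 RPM (log2 changes 0.59 and -2.15). The CR1-Daphne elements Takuya and Sake2_BM rose, from 2805 and 2716 to 4547 and 4483 RPM and from 562 and 523 to 1034 and 995 RPM. R1-3_BM, of the R1 clade, rose from 2221 and 1931 to 3002 and 3036 RPM (log2 change 0.54), and Dong-2_BM, of the R2-R4 group, fell from 369 and 333 to 177 and 177 RPM (log2 change -0.98). Cre-1_BM, of the CRE clade, fell from 173 and 181 to 78.7 and 78.7 RPM. LINEs with no superfamily in their label were lower in 6 of 10 (60.0%, beside 44.4% of all tested entries) and higher in 1. With the trimmed mean 4 were lower and 4 higher. Koshinaka fell from 1191 and 1177 to 599 and 563 RPM, Taguchi from 625 and 686 to 326 and 326 RPM and Nakasone from 263 and 253 to 125 and 126 RPM. The log2 change was -1.03 for Koshinaka and -1.03 for Nakasone. Pakurin fell further, from 1230.3 and 1383 to 413 and 424 RPM (log2 change -1.64 ± 0.08, SE, adjusted p = 5.35e-20).

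Elements with fixed insertion sites were next. R1Bm and R2Bm, which insert into ribosomal RNA genes, were at 2387 and 2347 and 2141 and 2220.0 RPM in control and at 1828 and 1873 and 2504 and 1964 RPM with Mael knockdown. R1Bm was called lower in RPM (log2 change -0.36) and higher with the trimmed mean (0.23), and R2Bm did not pass the test in RPM, with groups that overlapped. TRAS and SART elements insert into the telomeric repeats of the silkworm, and of 5 entries 4 were lower and none higher, 2 of them under all 3 references. The share lower in RPM, 80.0% of only 5 entries, stands beside 44.4% of all tested entries. TRASY_partial fell furthest, from 18.7 and 14.2 to 6.61 and 1.63 RPM (log2 change -1.95 ± 0.37, SE, adjusted p = 1.95e-05), with 3 reads behind the second Mael value. SART1 fell from 1423 and 1418 to 740.1 and 745 RPM (log2 change -0.94), and SARTBm3, at 429.7 and 407 and 249 and 248 RPM, was lower in RPM but not with the trimmed mean. TRAS3 stood at 54.1 and 44.2 and 36.0 and 31.5 RPM, a call that was lost with the trimmed mean, without LucKD replicate 1 (adjusted p = 0.105 in limma) and without MaelKD replicate 2 (0.0732).

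**Figure D4:**
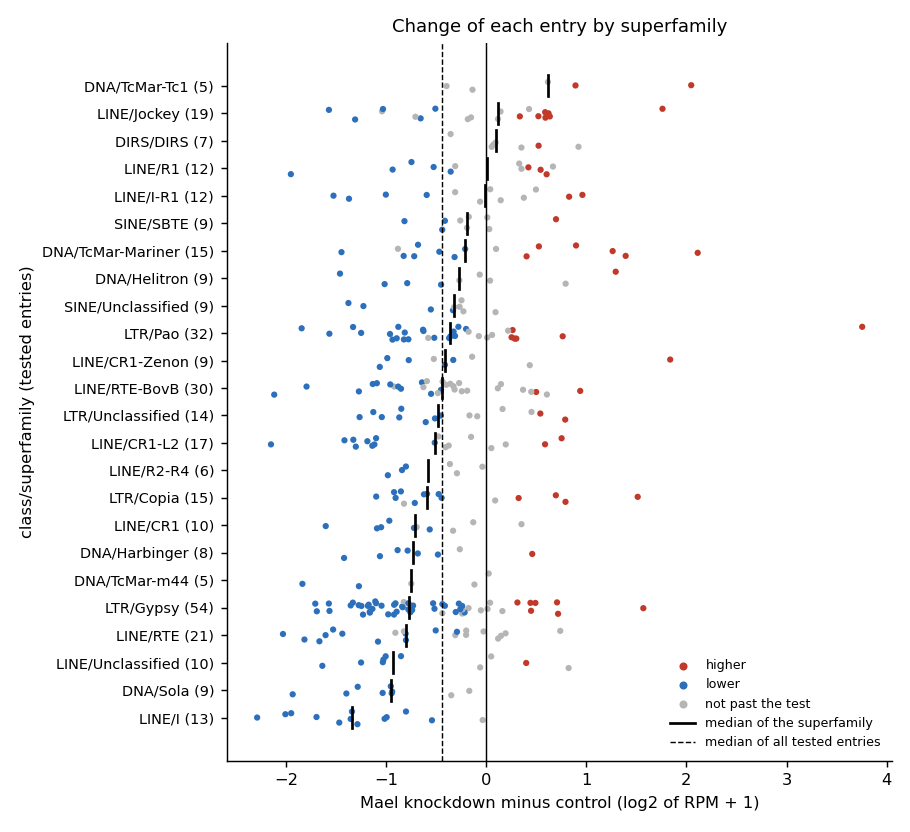
Log2 change after Mael knockdown (x axis, log2 of RPM + 1) of each tested entry, by superfamily where 5 or more entries were tested (y axis, number of entries in parentheses), ordered by the median (black bar). Red entries were higher, blue lower and grey did not pass the test, and the dashed line is the median of all 1004 entries. LINE/I and DNA/Sola lie at the bottom with no red entry, and the TcMar-Tc1 and Jockey medians are among those right of 0.

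Among LTR retrotransposons, the most abundant elements fell and a few of high level rose. Pao, the most read entry of the table in control cells, went from 50961 and 51983 to 33511 and 33156 RPM (log2 change -0.63 ± 0.07, SE, adjusted p = 9.84e-10). With the trimmed mean its change was -0.04 and did not pass the test, so its fall is one against the whole library and not against the middle entries. Yamato, also Pao-type, fell from 20975 and 23451 to 12518 and 12568 RPM (log2 change -0.82 ± 0.07, SE, adjusted p = 1.57e-12), or by 0.23 with the trimmed mean. Both were higher after Ago3 knockdown than in control, Pao at 78104 and 84959.6 RPM and Yamato at 31465 and 34120.4 RPM.

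Some other Pao-type elements rose. Moriya_7603bp rose from 8502 and 9641 to 14971 and 15789 RPM (log2 change 0.76 ± 0.08, SE, adjusted p = 2.95e-11). Kamikaze and Noguchi were at 3072 and 3309 and 3061 and 3131 RPM in control and at 3775 and 3994 and 3752 and 3876 RPM with Mael knockdown, higher in RPM and with the trimmed mean but not with the transposon total. BmRT20 fell from 242 and 259 to 106 and 103 RPM (log2 change -1.25). Of 32 Pao-type entries 6 were higher and 20 lower, with 16 and 9 under the trimmed mean. The share lower in RPM was 62.5%, beside 44.4% of all tested entries.

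Gypsy elements, relatives of retroviruses, were lower in most cases in RPM. Of 54 tested 38 were lower and 7 higher, or 19 and 17 with the trimmed mean, and under all 3 references 19 were lower and 4 higher. The share lower in RPM was 70.4%, beside 44.4% of all tested entries. BmRT1 fell from 3522 and 3536 to 1066 and 1094 RPM (log2 change -1.71 ± 0.08, SE, adjusted p = 7.71e-22) and BmRT2 from 3641 and 3779 to 1462 and 1483 RPM (log2 change -1.33). Matsui_Mag_type fell from 358 and 347 to 117 and 118 RPM (log2 change -1.57), and BmRT5 from 192 and 184 to 68.5 and 57.5 RPM (log2 change -1.57). The exception of highest level was BmRT3, which rose from 8139 and 8691 to 24585 and 25345 RPM (log2 change 1.57 ± 0.07, SE, adjusted p = 1.17e-21) and had, after Mariner-2_BM, the second largest absolute gain of all entries.

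The Kabuki group of Gypsy elements was divided. Kabuki itself was at 3832 and 3914 and 3995 and 3960.0 RPM, which did not pass the test in RPM (log2 change 0.04, adjusted p = 0.671 in limma). Suzuka_Kabuki_type fell from 868 and 861 to 457 and 513 RPM (log2 change -0.83). Of 15 Copia entries 4 were higher (26.7%) and 9 lower (60.0%) in RPM, beside 11.8% and 44.4% of all tested entries. With the trimmed mean 5 Copia entries were higher and 2 lower. The Copia element BmRT15 rose from 1314 and 1248 to 3618 and 3696 RPM (log2 change 1.51 ± 0.07, SE, adjusted p = 2.71e-20). Among the 14 LTR entries with no superfamily, 2 were higher and 8 lower (57.1%, beside 44.4% of all tested entries). With the trimmed mean 6 were higher and 4 lower. Benibana rose from 946 and 824 to 1577 and 1478 RPM and Nemawashi fell from 2033 and 2181 to 920.0 and 1008 RPM (log2 changes 0.79 and -1.13).

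SINEs, short elements without a protein of their own, held 0.491% of the control libraries and 0.448% of the Mael libraries. Bm1, the SINE present in many copies in the silkworm genome, rose from 49.9 and 45.9 to 79.0 and 86.3 RPM (log2 change 0.77), and Bm1-450bp from 71.0 and 86.2 to 129 and 126 RPM. Both were higher still after Ago3 knockdown, Bm1 at 118 and 119 RPM. BmSE, a tRNA-derived SINE, was at 61.0 and 66.3 RPM in control and at 235 and 135 RPM with Mael knockdown (log2 change 1.47 ± 0.19, SE, adjusted p = 8.35e-09). Its Mael libraries were not close to each other. Of the SINEs with no superfamily in their label, Amanoya fell from 460.2 and 511 to 176 and 198 RPM (log2 change -1.38) and Sayama from 68.0 and 73.7 to 37.7 and 23.3 RPM (log2 change -1.23). The DIRS entries, retrotransposons that use a tyrosine recombinase, held 0.0785% of control and 0.0855% of Mael libraries, with 1 of 7 called higher in RPM, 4 with the trimmed mean and 0 with the transposon total.

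Most entries carry no class, and these spanned the whole range. BmTE_RM5-571, the second most read entry of the table in control cells, was at 26923 and 28578 RPM in control and 45444 and 36383 RPM with Mael knockdown (log2 change 0.55 ± 0.08, SE, adjusted p = 1.56e-07). BmTE_RM6-3840 rose from 4242 and 4071 to 9561 and 9702 RPM (log2 change 1.21 ± 0.07, SE, adjusted p = 4.71e-18). The largest falls of all were in unclassified entries of low level. BmTE_RM3-440 fell from 23.9 and 27.2 to 2.31 and 1.63 RPM (log2 change -3.17 ± 0.31, SE, adjusted p = 1.37e-11). BmTE_RM6-2793 went from 10.8 and 17.0 to 0.661 and 1.09 RPM, which is 2 reads in each Mael library, too few for a fold.

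Members near the rule's limit were of this kind. The 3 entries just above a mean of 1 RPM, BmTE_RM1-517, BmTE_RM1-312 and BmTE_RM1-96, had 0 to 1.46 RPM in the 4 libraries compared. The 3 just below it, BmTE_RM5-3125, BmTE_RM6-1179 and BmTE_RM6-2035, had 0 to 1.46 RPM.

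Calls were spread unevenly over the range of levels. Of the 251 entries with the lowest mean RPM 4 were higher and 47 lower, of the next 251 entries 7 and 117, of the next 251 again 35 and 143, and of the highest 251 entries 72 and 139. With the trimmed mean these counts were 14 and 17, 30 and 50, 83 and 65, and 134 and 62. The mean includes the Mael libraries, so an entry can stand in a high set through its rise. Fewer reads leave less power among the lowest. Of the entries with a recovered length, the 267 longest had 50 higher and 148 lower and the 266 shortest 18 and 104, or 100 and 73 and 46 and 40 with the trimmed mean, with medians of -0.46 and -0.44. The median level was 245 RPM for the longest and 10.9 RPM for the shortest, so length cannot be told apart from level here.

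The contrast between Mael and Ago3 knockdown asked where the pool differs between cells given siRNA to Mael and cells given siRNA to Ago3, the ping-pong partner of Siwi. It uses no control library. Of 1004 entries 208 were higher with Mael knockdown (20.7%) and 318 lower (31.7%), with 264 and 204 under the trimmed mean and 130 and 544 with the transposon total, and the median was -0.34.

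The largest differences lay in entries that Mael knockdown raised or left near control and Ago3 knockdown lowered. W-Sakura differed by 4.25 on the log2 scale between Mael and Ago3 knockdown (adjusted p = 1.68e-31 in limma). BmTE_RM6-6914, an unclassified entry, was at 5132 and 5333 RPM in control, 5537 and 6201 RPM with Mael and 379 and 425 RPM with Ago3 knockdown (log2 difference between the knockdowns 3.86, adjusted p = 8.53e-34). Its change from control did not pass the test with Mael knockdown in RPM. BmTE_RM1-267 was at 60.8 and 86.8, 151 and 157 and 7.27 and 12.9 RPM in the same order, and BmTE_RM5-242, an I-R1 LINE, at 312 and 327, 605 and 640.4 and 65.8 and 63.8 RPM. BMC1-Abe differed by 3.01 and BmRT3 by 2.50 on the log2 scale.

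In the other direction, BmTE_RM6-7117 was at 76.8 and 64.1 RPM in control, 41.7 and 36.4 RPM with Mael and 267 and 268 RPM with Ago3 knockdown (log2 difference between the knockdowns -2.75, adjusted p = 4.48e-21). Pao and Yamato differed by -1.29 and -1.39. By superfamily, 10 of 15 TcMar-Mariner entries were higher with Mael than with Ago3 knockdown and none lower, and 11 of 19 Jockey entries were higher and 2 lower. Of the 9 SINEs of the SBTE superfamily 8 were lower and 1 higher, and of 13 I elements 8 were lower and 2 higher. These stand beside 20.7% higher and 31.7% lower of all 1004 tested entries. With the trimmed mean the counts were 11 and 0 for mariners, 11 and 0 for Jockey entries, 1 and 5 for SBTE SINEs and 3 and 7 for I elements (higher and lower). Over all 1004 entries they were 264 and 204. Some entries did not differ past the threshold in RPM, although both named here were lower with Mael knockdown when the transposon total was the reference. SART1 was at 749.6 and 868 RPM with Ago3 knockdown, close to its Mael level (log2 difference -0.12, adjusted p = 0.217), and BmTE_RM6-5534 was at 85.0 and 69.3 RPM (log2 difference -0.15, adjusted p = 0.291).

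The poly-A RNA of the same transposons was measured in other libraries of Mael knockdown and control cells. Of 490 entries with a mean of at least 1 RPKM, 41 had higher RNA (8.37%) and 13 lower (2.65%). The RNA counts rest on few libraries: the 41 were 17 without MaelKD replicate 2, 22 without LucKD replicate 1 and 26 without MaelKD replicate 1, and the 13 were 1, 11 and 4, and 5 without LucKD replicate 2.

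Most entries with more RNA had less Siwi-bound small RNA in RPM. All 41 were also tested in small RNA, where 32 were lower and 1 higher, with a median of -0.75. Of the 453 entries tested in both assays 199 were lower (43.9%) and 72 higher (15.9%), with a median of -0.34. Over all 1004 entries the median was -0.44. The 32 are 78.0% of the entries with higher RNA and 7.17% of the 446 with lower small RNA. With the trimmed mean 18 of the 41 were lower and 8 higher in small RNA, beside 86 lower and 156 higher of the 453. When an RNA library was left out, 12 of 16 to 31 of 38 such entries were lower in small RNA. Of the 13 entries with lower RNA 12 were tested, and 3 were higher and 5 lower in small RNA, or 7 and 2 with the trimmed mean. Of 400 entries whose RNA did not pass the test, 68 were higher and 162 lower, or 141 and 66 with the trimmed mean.

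Single entries show the range. BmTE_RM1-644, unclassified, had 11.0 and 13.5 RPKM in control and 79.3 and 64.2 RPKM with Mael knockdown, and its small RNA fell from 498 and 442 to 242 and 223 RPM (log2 changes 2.45 in RNA and -1.01 in small RNA). BmTE_RM1-43 went from 121 and 97.5 to 444 and 369 RPKM while its small RNA fell from 826 and 791 to 444 and 410.3 RPM (log2 changes 1.89 and -0.92). For both, the RNA groups and the small RNA groups lay apart in opposite directions. The small RNA of BmTE_RM1-413 went from 1752 and 1443 to 1092 and 1162 RPM with a rise in RNA from 24.1 and 23.2 to 97.8 and 102 RPKM, and its small RNA change of -0.50 was 0.09 with the trimmed mean. The Sola entry BmTE_RM6-8256, whose small RNA fell, had 7.47 and 8.24 RPKM in control and 15.0 and 15.9 RPKM with Mael knockdown (log2 change 0.90 in RNA, adjusted p = 0.0012, or 0.0539 without MaelKD replicate 2).

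Other pairings occurred too. BmTE_RM6-3840, with more small RNA, fell in RNA from 1.63 and 1.83 to 0.330 and 0.435 RPKM (log2 change -0.98), an RNA call that was lost when any of the 4 RNA libraries compared was left out (adjusted p = 0.0553 to 0.100 in limma). BmRT2 fell in both, with RNA at 102 and 197 RPKM in control and 78.5 and 73.0 RPKM with Mael knockdown, an RNA call lost without LucKD replicate 2 and without either Mael library (adjusted p = 0.0781 to 0.335). Of the 36 entries whose small RNA rose at least 2-fold, 19 had no called RNA change and 3 had lower RNA. The other 14 were below the RNA filter and not tested in RNA. Bmmar6 had 11.9 and 16.4 RPKM in control and 15.8 and 15.7 RPKM with Mael knockdown, Mariner-2_BM 11.6 and 14.8 and 14.3 and 14.3 RPKM, and BmRT3 9.36 and 12.9 and 10.5 and 9.54 RPKM, each with groups that overlapped. Over the 453 entries tested in both, Pearson's r between the small RNA and RNA log2 changes was -0.13 and Spearman's rho -0.13, a description across entries that are not replicates.

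**Figure D5:**
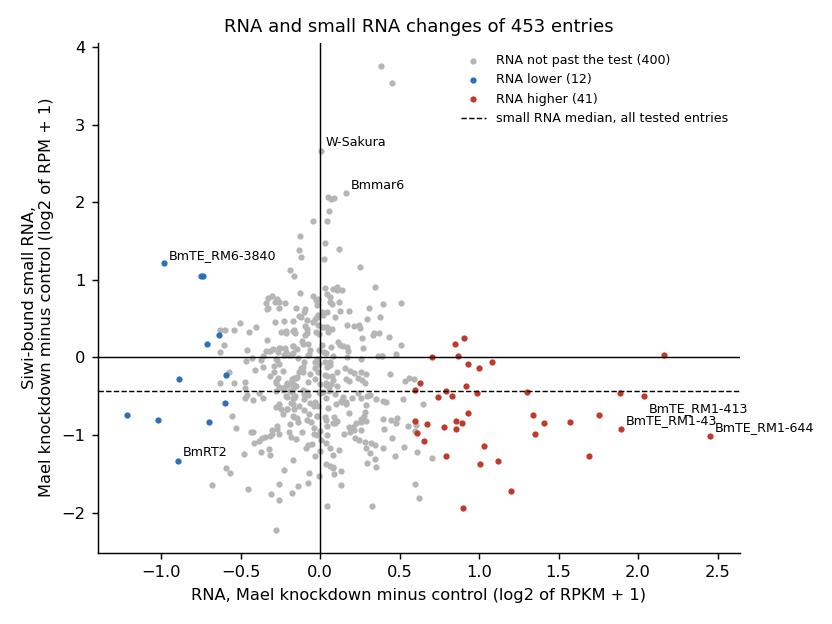
Log2 change of Siwi-bound small RNA (y axis, log2 of RPM + 1) against that of poly-A RNA (x axis, log2 of RPKM + 1) after Mael knockdown, for the 453 entries tested in both; points are entries, red with higher RNA (41), blue with lower RNA (12) and grey with RNA that did not pass the test (400). Of the 41 red points 32 are lower in small RNA past the test, beside 199 of all 453 points. W-Sakura and Bmmar6 lie high on the y axis with RNA changes near 0.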

How the data were processed

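Siwi-bound small RNA was measured in 6 libraries and poly-A RNA in 6 others, grouped and numbered by the sample titles. Small RNA values are RPM and RNA values RPKM, and per the file headers the authors made both. The submitters' processing notes name STAR 2.7.9a, Trim Galore, cutadapt 3.1, Bowtie 1.3.0, bedtools and SAMtools. What each did, the genome build, the strand and the treatment of reads with several matches are not given in the sources used for this text. Every RPM value was a whole number of reads within 0.001 (100% of values), which gave the library totals, and the steps of the RPKM values gave a length for 799 of the 1004 tested entries.

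Entries with a mean of at least 1 were tested as log2(value + 1) in limma 3.58.1 (R 4.3.3, eBayes with trend, two-sided, all 6 libraries of a table in the fit, Benjamini-Hochberg adjustment over all tested entries, threshold 0.05). In simulated data the fit called 70 of 100 entries changed 2-fold, 89 of 100 changed 4-fold and 5 of 804 unchanged. The simulation had as many rises as falls and no shift of the pool. Beside counting noise, it added noise set below the average spread between replicates, so these rates need not hold for the real data. Fold changes on this scale understate those of low entries. The labels do not say whether the 2 libraries of a group are from separate cultures. The p-values therefore measure only the spread between libraries, which may be technical. edgeR 4.0.16 and DESeq2 1.42.0 on the recovered reads were alternatives.

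Lists were each class and superfamily in the names, named elements (176 tested of 196), telomeric and ribosomal DNA elements, 4 equal sets by mean RPM, and entries by RNA call. Entries named in the text are the 10 largest rises and falls above the first quartile of level with groups apart, the 10 highest in control, the 5 largest absolute rises and falls, named elements, the largest rise and fall in each superfamily, the 5 largest RNA changes each way called in both assays, the 5 largest differences each way from Ago3 knockdown, and the 3 on each side of the limit. The members, lists and rules were chosen with earlier results of these data known. Named elements as a whole had 33 higher (18.8%) and 90 lower (51.1%), beside 11.8% and 44.4% of all tested entries. With the trimmed mean 71 were higher and 37 lower. Where the text gives a p without a test, it is limma's adjusted p.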

Additional observations from a re-analysis of the deposited data

How the results depend on the processing

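The counts moved most under the settings that changed the scaling. Against control, entries higher and lower were 261 and 194 with trimmed-mean scaling, 269 and 200 with edgeR and TMM factors, and 199 and 143 (342 in all) with DESeq2, and the number of the 5 large classes with more entries lower than higher went from 5 to 0 under each of these. Against Ago3 knockdown, lower entries were 204, 195 and 140 in the same order, and 130 were higher and 544 lower with the transposon total. Named entries turned in sign under those 3 settings as follows. I-2_BM was at 0.55, 0.55 and 0.49, R1Bm at 0.23, 0.23 and 0.17, and BmTE_RM1-413 at 0.0924, 0.0792 and 0.0220, while with the first 2 settings BmpiggyBac-MER85 was at 0.0589 and 0.0565 and TRAS3 at 0.05002 and 0.0187. Kabuki was at -0.16 with the transposon total. edgeR without TMM factors turned none of the 86 named entries. DESeq2 changed the model together with the scaling, and the cause of its values was not tested.

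Pseudocounts of 0.1 and 10, no filter, a mean of at least 10, edgeR without TMM factors and the fit of only the 4 libraries kept both counts against control within 1.5 times. Leaving out a library gave 98 to 113 higher and 371 to 409 lower, 481 to 507 in all, and against Ago3 knockdown 181 to 191 higher and 263 to 323 lower, 449 to 512 in all. With the replicate block the counts were 120 higher and 447 lower, against Ago3 knockdown 208 and 320, and for RNA 47 and 15. Deviations between replicates were not shared across groups (correlation -0.05 between control and Mael, 0.04 between Ago3 and Mael). That cannot show whether samples of the same replicate number were prepared together. The block changed 1 named call, BmTE_RM6-6914, which then passed (log2 change 0.16, adjusted p = 0.0225 in limma).

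RNA calls were the least stable, with 16 higher and 3 lower (19 in all) without a filter, 24 and 7 (31) at a mean of at least 10, and 17 to 38 higher and 1 to 11 lower (18 to 43 in all) when a library was left out. The transposon share rose by 1.89 points without the 10 highest entries and by 5.62 to 6.90 points without a library. Depth limits the lowest entries, where 3 reads stand for up to 1.70 RPM. Floors cover counting error only, while the SDs and SEs describe the spread between libraries.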
